A study of Mus musculus with 4 samples.

Results

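The mRNAs of 10 adhesion genes were followed in immortalized macrophages that lack or carry the kinase MK2. These were *Icam1*, *Icam2* and *Vcam1*, which encode adhesion molecules of the immunoglobulin superfamily, and *Itgal*, *Itgam*, *Itgax*, *Itgb2*, *Itga4*, *Itgav* and *Itgb1*, which encode integrin chains of macrophages. The genes were chosen by name, and each of the 10 names matched 1 of the 55356 genes in the table. The cells descend from bone marrow macrophages of *MK2*-deficient mice, which had been immortalized and then transduced either with an empty vector expressing *GFP* (i*MK2*-KO +*GFP*, called +*GFP* from here on) or with *MK2* (i*MK2*-KO +*MK2*, called +*MK2*), and all of them therefore carry the *MK2* deletion. Transduced cells were sorted on GFP, and each genotype is represented by 1 cell line. Either line was sampled without treatment (UT) and after murine IL-1α (5 ng/mL, 1 h), and 1 library was sequenced for each of the 4 conditions. The labels give the genotype of +*MK2* cells as wild type.

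Integrins are heterodimers of an α and a β chain that bind ligands on other cells and in the extracellular matrix. The leukocyte integrins share the β2 chain (CD18, *Itgb2*), which pairs with αL (CD11a, *Itgal*) to form LFA-1, with αM (CD11b, *Itgam*) to form the complement receptor Mac-1 and with αX (CD11c, *Itgax*). LFA-1 and Mac-1 bind ICAM-1, whereas VCAM-1 is bound by VLA-4, which consists of α4 (*Itga4*) and β1 (*Itgb1*). ICAM-1 and VCAM-1 are best known from activated endothelium, where inflammatory cytokines induce them through NF-κB, and macrophages also express ICAM-1. αM is a standard marker of the myeloid lineage, and the transcription factor PU.1 drives many myeloid genes.

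All values are DESeq2 normalized counts as deposited, that is, gene counts scaled between libraries and rounded. They summed to between 24891906 and 25733071 per library. Ratios are given as log2 ratios between libraries, with 1 added to each value. The 95% interval behind each ratio takes 1 normalized count as 1 read (Clopper-Pearson). It covers counting error only, not the variation between cultures. Since no condition has a second library, no difference has a replicate check, and no test and no p-value are given. A gene is called where the libraries differ at least 2-fold, and the background is the share of called genes among the 12483 genes with a mean of at least 10. Of the 10 adhesion genes, 9 reached this mean, all but *Vcam1*. *Mapkapk2*, which encodes MK2, was at 561 normalized counts (UT) and 1585 (IL-1α) in +*GFP* cells and at 38357 and 38141 in +*MK2* cells. The columns thus follow their labels for the line. This gene does not check the treatment labels. The 10 macrophage markers summed to between 121407 and 135883. The sums of 5 endothelial, 4 T cell, 3 B cell and 4 neutrophil markers were at most 15 in any library, and 4 fibroblast markers were at 0. Among dendritic cell markers, *Zbtb46* had 104 and 115 normalized counts in +*MK2* cells and 23 and 18 in +*GFP* cells, and *Flt3* and *Ccr7* were at 0. In such bulk RNA, fewer cells that express a gene and less RNA per cell cannot be told apart.

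*Icam1* was the 1 gene of the set that was called higher after IL-1α, and this in +*GFP* cells only (1 of 9, against 2.25% of all genes). Its promoter is shown because it carries the letters of a short NF-κB core (κB core). This core was added to the search after the longer κB consensus had matched none of the promoters found. A part of NF-κB in the *Icam1* response was not tested here. Beside it stand the promoters of *Itgam* and *Itgax*, neighbouring β2 partner genes on chromosome 7. These 2 genes had 833 and 3.75 normalized counts per kb of exons in UT +*MK2* cells. The 250 bases before the RefSeq transcript start were read from GRCm38.p6, on the plus strand, at chr9:21015690-21015939 for *Icam1*, chr7:128062390-128062639 for *Itgam* and chr7:128129300-128129549 for *Itgax*. Capitals mark the κB core GGANNNTCC in *Icam1*, the PU.1 core GAGGAA (or its complement) in *Itgam* and the AP-1 site TGANTCA in *Itgax*.
Icam1 promoter: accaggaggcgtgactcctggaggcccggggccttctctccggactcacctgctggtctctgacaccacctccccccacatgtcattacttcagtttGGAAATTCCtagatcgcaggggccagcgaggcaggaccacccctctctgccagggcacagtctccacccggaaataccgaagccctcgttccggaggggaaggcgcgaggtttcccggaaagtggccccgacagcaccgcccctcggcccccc
Itgam promoter: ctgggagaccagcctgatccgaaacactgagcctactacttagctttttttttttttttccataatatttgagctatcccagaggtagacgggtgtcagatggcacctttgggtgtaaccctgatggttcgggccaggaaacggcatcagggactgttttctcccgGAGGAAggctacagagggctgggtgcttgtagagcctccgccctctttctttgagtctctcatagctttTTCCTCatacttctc
Itgax promoter: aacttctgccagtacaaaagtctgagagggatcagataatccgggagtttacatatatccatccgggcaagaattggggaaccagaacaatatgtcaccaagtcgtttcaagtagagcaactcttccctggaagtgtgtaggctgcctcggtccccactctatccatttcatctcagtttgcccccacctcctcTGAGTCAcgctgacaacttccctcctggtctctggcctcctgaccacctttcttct

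Promoters were found for 6 of the 10 genes, *Icam1*, *Itgam*, *Itgax*, *Itga4*, *Itgav* and *Itgb1*. Both strands were searched. The κB core lay in *Icam1* alone among the 6, at positions -153 to -145, and in 7.27% of all 32851 promoters. The longer κB consensus, which 9.55% of all promoters held, matched none of the 6, and the core was added after this result had been seen. The PU.1 core was present in *Itgam*, *Itgav* and *Itgb1* and in 23.3% of all promoters. *Spi1*, the gene of PU.1, had 4782 and 5524 normalized counts in +*GFP* and 4551 and 4663 in +*MK2* cells. *Itgam* held the core at -84 to -79 and, on the other strand, at -15 to -10. The GC box GGGCGG was found in *Icam1*, *Itga4*, *Itgam* and *Itgb1* (32.7% of all promoters), the AP-1 site in *Itgax* (6.75%), and neither a TATA box TATAAA (12.4%) nor an E box CACGTG (6.02%) in any of the 6. These matches describe letters in the window and no binding was measured. The annotated start of *Icam1* in GENCODE M21 lies 45 bases downstream of the RefSeq start used here.

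**Figure D1:**
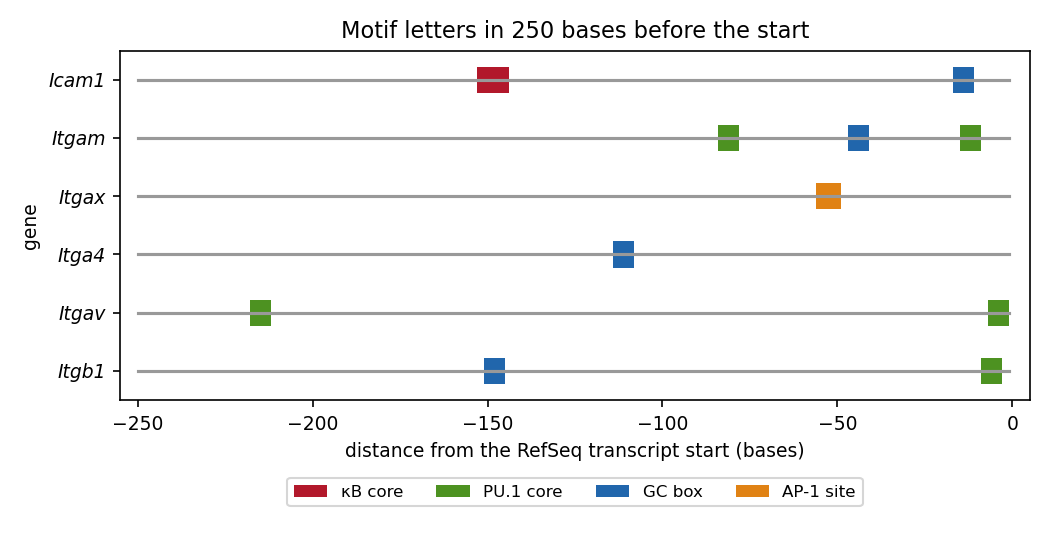
Positions of motif letters in the 250 bases before the RefSeq transcript start of 6 genes, with the distance from the start in bases on the horizontal axis and 1 line per gene. The κB core appears in *Icam1* only, between -153 and -145, and the PU.1 core in *Itgam*, *Itgav* and *Itgb1*.

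Among the ligands, *Icam1* (ENSMUSG00000037405.9; chromosome 9, 21015985 to 21028817 on GRCm38, plus strand) had 1421 normalized counts in UT and 8329 in IL-1α-treated +*GFP* cells, and 1392 and 1527 in +*MK2* cells. The IL-1α-treated +*GFP* library thus stood apart from the other libraries, which lay close to each other. In +*GFP* cells the rise was 5.86-fold, a log2 ratio of 2.55 (interval 2.47 to 2.63), and in +*MK2* cells it was 1.10-fold, a log2 ratio of 0.13 (0.03 to 0.24). Between the lines, the ratio was 0.03 (-0.08 to 0.14) in UT cells and 2.45 (2.37 to 2.53) after IL-1α. In the order of levels, IL-1α-treated +*MK2*, UT +*GFP* and UT +*MK2* cells followed each other without a neighbouring difference beyond counting error. Of the 12483 genes, 57 rose more than *Icam1* in +*GFP* cells and 2040 rose more in +*MK2* cells. The response in +*GFP* cells exceeded that in +*MK2* cells by 2.42 on the log2 scale, and whether the responses differ between the lines was not tested.

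The genes whose pattern over the 4 libraries was nearest to that of *Icam1*, among 10551 named genes with a mean of at least 50, were *Irf1*, *Zc3h12c* and *Icosl*. Likeness was the distance between centred log2 values, and it was 0.12, 0.20 and 0.26. *Irf1*, which encodes a transcription factor of interferon responses, had 324 and 1885 normalized counts in UT and IL-1α-treated +*GFP* cells and 343 and 338 in +*MK2* cells. *Icosl*, the gene of a costimulatory ligand, had 196 and 1260 against 173 and 183. *Zc3h12c* had 505 and 3468 against 536 and 647. Like *Icam1*, each of these genes was high in 1 library.

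*Icam1* lies beside the genes of other ICAM proteins, whose values were low in every library. *Icam5*, which starts 3256 bases downstream, had 20 and 26 normalized counts in +*GFP* and 30 and 26 in +*MK2* cells. *Icam4*, a member of the same family located between them, had 3, 4, 0 and 1 in the order UT and IL-1α-treated +*GFP*, UT and IL-1α-treated +*MK2*. The antisense gene *Gm47079* overlaps *Icam1* and had 3 or 4 in each library. The kit marked the strand, but whether the counting used it is not stated. *Mrpl4*, which ends 7146 bases before *Icam1*, had between 2084 and 2303. *S1pr2*, 39204 bases away on the opposite strand, had 1236 and 742 normalized counts in +*GFP* and 1016 and 952 in +*MK2* cells, a log2 response of -0.74 in +*GFP* cells.

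*Icam2* (ENSMUSG00000001029.16; chromosome 11, 106377656 to 106388075, minus strand) encodes a ligand of LFA-1 that is known as constitutive on leukocytes and endothelium. Its normalized counts were 309 (UT) and 262 (IL-1α) in +*GFP* cells and 202 and 237 in +*MK2* cells. Levels were highest in UT +*GFP* and lowest in UT +*MK2* cells, with a UT log2 ratio of 0.61 (0.35 to 0.88). After IL-1α the ratio was 0.14 (-0.11 to 0.40), and no difference was detectable at this depth. The response was -0.24 (-0.48 to 0.0041) in +*GFP* and 0.23 (-0.05 to 0.51) in +*MK2* cells, each within counting error when taken singly. The difference between these responses was -0.47, and 1005 of the 12483 genes had a lower one. It was not tested.

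*Vcam1* (ENSMUSG00000027962.15; chromosome 3, 116109949 to 116129688, minus strand) had 2 normalized counts in IL-1α-treated +*GFP* cells and 0 in the other libraries. A count of 0 allows up to 3 counts, so all libraries were at or under this floor and no fold is given. Endothelial markers were likewise near 0, with sums of 0 to 2 over *Cdh5*, *Kdr*, *Tek*, *Emcn* and *Tie1*. An IL-1α response of *Vcam1* was not detectable at this depth.

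**Figure D2:**
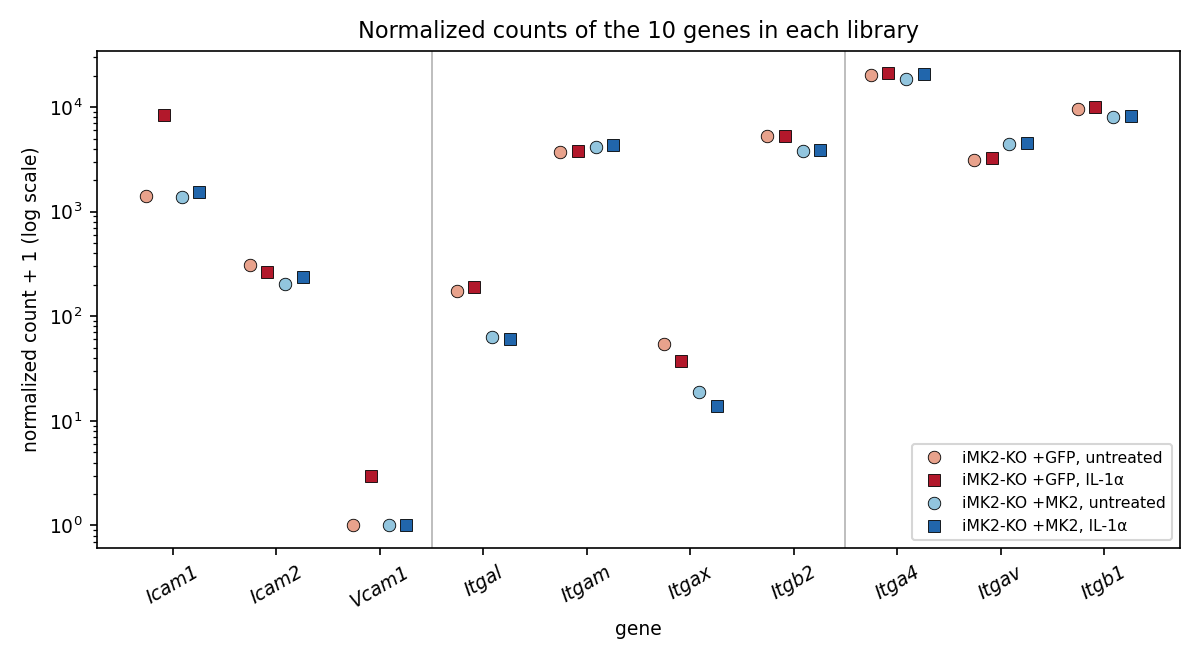
Normalized counts plus 1 (log scale) of the 10 genes, with 1 point per library, circles for untreated and squares for IL-1α-treated cells. *Icam1* reaches 8329 in IL-1α-treated +*GFP* cells and lies between 1392 and 1527 in the other libraries, whereas *Vcam1* is at 0 to 2.

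The β2 integrin chains differed between the lines beyond counting error, and no response of theirs to IL-1α exceeded it. *Itgb2* (ENSMUSG00000000290.14; chromosome 10, 77530252 to 77565708, plus strand), the common β chain, had 5277 and 5295 normalized counts in UT and IL-1α-treated +*GFP* cells and 3807 and 3886 in +*MK2* cells. *Itgb2* was higher in +*GFP* cells, by log2 ratios of 0.47 (0.41 to 0.53) in UT cells and 0.45 (0.39 to 0.51) after IL-1α. The IL-1α response was 0.0049 (-0.05 to 0.06) and 0.03 (-0.04 to 0.09).

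*Itgal* (ENSMUSG00000030830.19; chromosome 7, 127296260 to 127335138, plus strand), the α chain of LFA-1, had 174 and 191 normalized counts in +*GFP* cells and 63 and 60 in +*MK2* cells. The libraries within a line differed by less than counting error. The values in +*GFP* cells were 2.76-fold (UT) and 3.18-fold (IL-1α) those in +*MK2* cells, log2 ratios of 1.45 (1.04 to 1.91) and 1.65 (1.25 to 2.11). The patterns nearest to *Itgal* were those of *Hfe*, *Prss50* and *Dapk1*, at distances of 0.08, 0.13 and 0.15. *Hfe*, a regulator of iron uptake, had 334 and 342 normalized counts in +*GFP* cells and 116 and 114 in +*MK2* cells.

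*Itgax* (ENSMUSG00000030789.10; chromosome 7, 128129547 to 128150657, plus strand), the α chain known as a dendritic cell marker, was low throughout, with 53 and 36 normalized counts in +*GFP* and 18 and 13 in +*MK2* cells. It was higher in +*GFP* cells, with log2 ratios of 1.51 (0.76 to 2.42) in UT cells and 1.40 (0.52 to 2.51) after IL-1α. The decreases with IL-1α, -0.55 (-1.21 to 0.08) and -0.44 (-1.62 to 0.64), were within counting error. *Zbtb46*, the dendritic cell marker above the floor, was higher in +*MK2* cells, that is, on the opposite side.

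*Itgam* (ENSMUSG00000030786.19; chromosome 7, 128062640 to 128118491, plus strand), the α chain of Mac-1, ends 11056 bases before *Itgax* on the same strand. It had 3750 and 3786 normalized counts in +*GFP* cells and 4186 and 4304 in +*MK2* cells, and was thus slightly lower in +*GFP* cells, at -0.16 (-0.22 to -0.09) and -0.18 (-0.25 to -0.12). IL-1α responses were 0.01 and 0.04. The predicted gene *Gm49368* spans most of *Itgam* on the same strand and had 5, 4, 30 and 6 normalized counts in the order UT and IL-1α-treated +*GFP*, UT and IL-1α-treated +*MK2*, so that reads may have been split between them.

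Levels of different genes were compared per kb of exons (GENCODE M21). On this scale *Itgam* made up between 95.2 and 98.6% of the summed *Itgal*, *Itgam* and *Itgax* level in every library. *Itgal* contributed 3.38 and 3.68% in +*GFP* cells and 1.13 and 1.05% in +*MK2* cells, and *Itgax* between 0.312 and 1.41%. *Itgad*, the gene of the remaining β2 partner, had 1 normalized count in 1 library and 0 in the others. The sum of these α chains per kb was 0.453 and 0.455 of the *Itgb2* level in +*GFP* cells and 0.679 and 0.682 in +*MK2* cells. *Itgam* was lower and *Itgb2* higher in +*GFP* than in +*MK2* cells. The ratios were 0.477 and 0.479, and 0.710 and 0.714, when the length of the longest coding transcript was used instead.

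**Figure D3:**
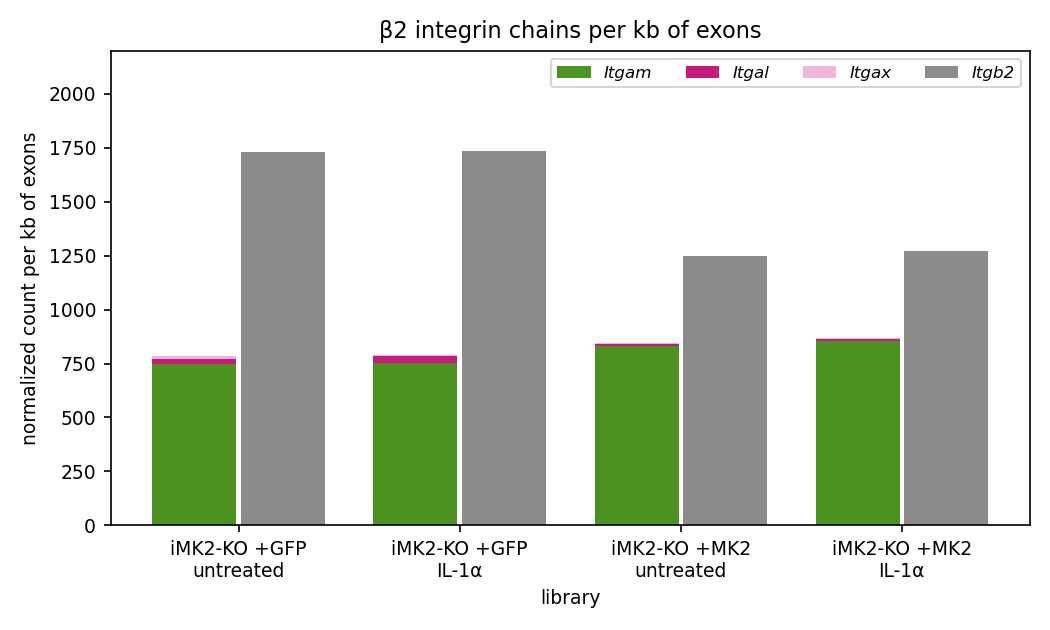
Normalized count per kb of exons of the β2 partner chains *Itgam*, *Itgal* and *Itgax* (stacked) beside *Itgb2* in the 4 libraries. *Itgb2* exceeds the summed α chains in each library, 1729 against 784 per kb in UT +*GFP* cells and 1247 against 847 in UT +*MK2* cells.

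*Itga4* (ENSMUSG00000027009.19; chromosome 2, 79255426 to 79333123, plus strand), the α chain of VLA-4, had 20156 and 20987 normalized counts in +*GFP* and 18629 and 20652 in +*MK2* cells. UT +*MK2* cells had the lowest value. Between the lines the log2 ratio was 0.11 (0.08 to 0.14) in UT cells and 0.02 (-0.0046 to 0.05) after IL-1α. The IL-1α response was 0.06 (0.03 to 0.09) in +*GFP* and 0.15 (0.12 to 0.18) in +*MK2* cells. *Cerkl*, on the opposite strand, overlaps the end of *Itga4* and had 58 and 53 against 16 and 7 normalized counts.

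*Itgb1* (ENSMUSG00000025809.16; chromosome 8, 128685654 to 128733200, plus strand), the β chain shared by VLA-4 and many matrix receptors, had 9561 and 10111 normalized counts in +*GFP* and 8088 and 8184 in +*MK2* cells. It was higher in +*GFP* cells by 0.24 (0.20 to 0.28) and 0.31 (0.26 to 0.35). Per kb of exons the *Itga4* level was between 0.61 and 0.74 of the *Itgb1* level, and between 0.81 and 0.99 per kb of the longest coding transcript, so the ratio depends on the length chosen. Per kb of exons, *Itgb1* had the highest level of the 10 genes in UT +*GFP* cells (2343), followed by *Itgb2* (1729) and *Itga4* (1442). Per kb of the longest coding transcript *Itga4* (2064) came before *Itgb2* (1777), and *Itgb1* was again highest (2506). Per kb of exons, *Icam1* stood at 326 in these cells and at 1910 after IL-1α.

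*Itgav* (ENSMUSG00000027087.12; chromosome 2, 83724397 to 83806916, plus strand) encodes the αv chain of receptors for vitronectin, osteopontin and MFG-E8. It had 3122 and 3262 normalized counts in +*GFP* cells and 4388 and 4573 in +*MK2* cells. It was lower in +*GFP* cells, at log2 ratios of -0.49 (-0.56 to -0.42) in UT cells and -0.49 (-0.55 to -0.42) after IL-1α. Its IL-1α response was 0.06 (-0.0080 to 0.13) and 0.06 (-0.00049 to 0.12). *Itgb5*, a β partner of αv, had 1169 and 1125 normalized counts in +*GFP* and 1546 and 1499 in +*MK2* cells, also a lower value in +*GFP* cells at -0.40 (-0.51 to -0.29) and -0.41 (-0.53 to -0.30). *Itgb3*, the other well-known partner, which was named after its values had been seen, had 0 and 0 in +*GFP* and 13 and 10 in +*MK2* cells.

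**Figure D4:**
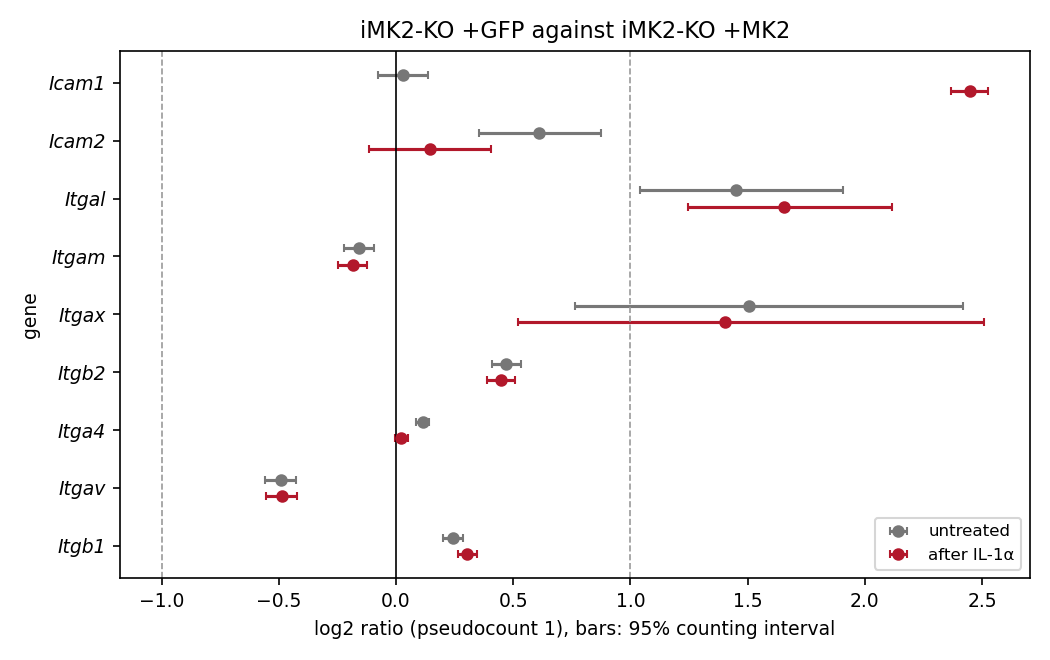
Log2 ratio of +*GFP* to +*MK2* cells for the 9 genes with a mean of at least 10, untreated (grey) and after IL-1α (red), with 95% counting intervals as bars and dashed lines at 2-fold. *Itgal* and *Itgax* lie above 2-fold in both comparisons, *Icam1* after IL-1α only (2.45), and *Itgav* lies at -0.49 in both.

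Among the 9 genes, *Itgal* and *Itgax* were called higher in UT +*GFP* cells (2 of 9, background 3.51%) and none was called lower (background 5.26%). After IL-1α, *Icam1*, *Itgal* and *Itgax* were called higher (3 of 9, background 4.16%) and none lower (background 5.57%). The IL-1α response was called for *Icam1* alone in +*GFP* cells (1 of 9, background 2.25% higher and 1.59% lower) and for 0 of 9 in +*MK2* cells (background 0.889% higher and 1.03% lower). The difference between the responses was at least 2-fold for *Icam1* alone (1 of 9, background 3.12% higher and 2.5% lower). The median log2 ratio of the 9 genes was 0.24 in UT cells and 0.31 after IL-1α, against 0.02 and 0.03 over the 12483 genes. For the IL-1α response the medians were 0.06 in +*GFP* and 0.04 in +*MK2* cells, against 0.01 and 0.0083 over all genes. Leaving out *Icam1*, the responses of the other 8 genes ranged from -0.55 to 0.13 in +*GFP* and from -0.44 to 0.23 in +*MK2* cells. The comparisons of the lines and those of the responses are made from the same 4 libraries.

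**Figure D5:**
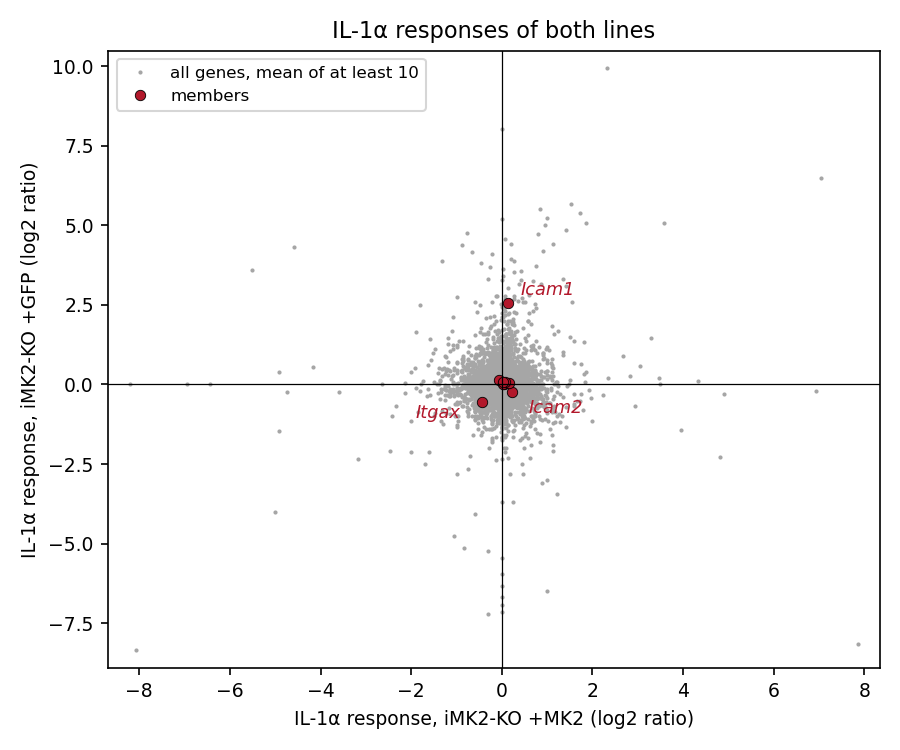
IL-1α response (log2 ratio) in +*MK2* cells on the horizontal and in +*GFP* cells on the vertical axis, for the 12483 genes with a mean of at least 10 (grey) and the 9 adhesion genes among them (red). *Icam1* lies at 0.13 and 2.55, and the other 8 genes lie between -0.55 and 0.23 on both axes.

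Macrophage markers also differed between the lines. Among them, *Mertk* was at least 2-fold lower in +*GFP* cells in both comparisons, and *Cd14* was at least 2-fold higher after IL-1α. *Cd14*, the co-receptor for lipopolysaccharide, had 3652 and 8072 normalized counts in +*GFP* and 1962 and 2250 in +*MK2* cells. *Adgre1* had 3978 and 4140 normalized counts in +*GFP* and 6832 and 6330 in +*MK2* cells, and *Mertk* had 421 and 364 against 1093 and 1168. *Csf1r* was higher in +*GFP* cells, with 23227 and 27561 against 20290 and 21305. The part of these differences between the lines in the integrin values was not tested, and an effect of MK2 cannot be told apart from other differences between the 2 lines.

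The wider adhesion machinery was described by 7 lists with 76 further genes, of which 43 had a mean of at least 10, 16 were lower and 17 were at 0 in all libraries. In UT cells 1 of the 43 was called higher in +*GFP* cells (background 3.51%) and 3 were called lower (5.26%). After IL-1α 6 were called higher (background 4.16%) and 2 lower (5.57%). For the IL-1α response, 2 of 43 were called higher (background 2.25%) and 0 lower (1.59%) in +*GFP* cells, and 0 higher (0.889%) and 2 lower (1.03%) in +*MK2* cells. The medians over the 43 genes lay between 0.02 and 0.05 in these comparisons, against 0.0083 to 0.03 over all genes.

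Of 13 other integrin α chains, 4 reached a mean of 10. In UT cells *Itga7* was called higher in +*GFP* cells (1 of 4, background 3.51%). After IL-1α *Itga5*, *Itga7* and *Itga10* were called higher (3 of 4, background 4.16%). *Itga5* is the α chain of the fibronectin receptor and a partner of β1. It alone of the 4 had a called IL-1α response in +*GFP* cells (1 of 4, background 2.25%). It had 1990 and 4415 normalized counts in +*GFP* cells and 1748 and 1889 in +*MK2* cells, a response of 1.15 (1.07 to 1.23) and 0.11 (0.02 to 0.21). *Itga7*, the α chain of a laminin receptor, was low, with 35 and 30 normalized counts in +*GFP* and 8 and 3 in +*MK2* cells. It was called higher in +*GFP* cells without and with IL-1α, at 2.00 (1.00 to 3.45) and 2.95 (1.64 to 5.68). With IL-1α it was called lower in +*MK2* cells (1 of 4, background 1.03%), at -1.17 (-3.96 to 0.64), which is within counting error. *Itga10*, the chain of a collagen receptor, had 56 and 67 against 33 and 26, with a log2 ratio between the lines of 1.33 (0.69 to 2.08) after IL-1α. Of 6 other β chains, *Itgb5* and *Itgb7* reached a mean of 10. Only *Itgb7* was called between the lines, higher in +*GFP* cells after IL-1α (1 of 2, background 4.16%). *Itgb7*, an alternative partner of α4 that forms the gut homing receptor, had 75 and 87 against 66 and 35, with a log2 ratio of 1.29 (0.73 to 1.92) after IL-1α.

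None of the 11 genes of integrin activation and linkage with this mean was called in any comparison, where the background was between 0.889 and 5.57% in each direction, so that few or no calls among 11 genes lie near it. *Tln1*, the gene of talin, had between 18582 and 19477 normalized counts, and *Fermt3*, the gene of the kindlin of blood cells, between 5647 and 6389. Differences under 2-fold between the lines went both ways. *Fyb* was lower in +*GFP* cells, at -0.64 (-0.72 to -0.57) in UT cells and -0.38 (-0.44 to -0.31) after IL-1α. *Fermt3* was slightly higher, at 0.16 (0.11 to 0.21) and 0.12 (0.07 to 0.17). Of 13 such adhesion site genes only *Src* was called, at 12 and 14 against 28 and 35 normalized counts. It was lower in +*GFP* cells without and with IL-1α (1 of 13 in each, near the background of 5.26% and 5.57%). Uncalled genes of this list lay on both sides. *Actn1* had 3732 and 3686 normalized counts in +*GFP* and 5543 and 5560 in +*MK2* cells, and *Ilk* had 1657 and 1729 against 1331 and 1404. *Vasp*, which encodes an actin regulator, had 3103 and 4654 in +*GFP* and 2913 and 2885 in +*MK2* cells, a response of 0.58 (0.52 to 0.65) and -0.01 (-0.09 to 0.06).

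Of the 3 linkers that bind the cytoplasmic tails of ICAM proteins to actin, *Ezr* was called higher in +*GFP* cells. This was after IL-1α only (1 of 3, background 4.16%). *Ezr* (ezrin) had 1524 and 1649 normalized counts in +*GFP* and 815 and 784 in +*MK2* cells, log2 ratios of 0.90 (0.78 to 1.03) and 1.07 (0.95 to 1.20). *Msn* (moesin) had 15811 and 17073 against 9587 and 9903, at 0.72 (0.69 to 0.76) and 0.79 (0.75 to 0.82). *Rdx* (radixin) lay between 5039 and 5361 in all libraries.

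Of 10 matrix and soluble ligands 4 reached a mean of 10. *Mfge8* was the 1 called, lower in +*GFP* cells (1 of 4, background 5.26% in UT cells and 5.57% after IL-1α). *Mfge8*, a bridge between αv integrins and apoptotic cells, had 496 and 464 normalized counts in +*GFP* and 1782 and 1885 in +*MK2* cells, at -1.84 (-1.99 to -1.70) and -2.02 (-2.17 to -1.88). *Spp1* (osteopontin) had 126492 and 130858 against 214552 and 219598, and was not called, at -0.76 (-0.77 to -0.75) and -0.75 (-0.76 to -0.74). Neither gene was called for its IL-1α response.

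Of 14 other adhesion molecules, 6 reached a mean of 10. *Alcam* had 4378 and 4247 normalized counts in +*GFP* and 2401 and 2616 in +*MK2* cells, and *Cd44*, the hyaluronan receptor, had 8062 and 9576 against 7331 and 7260. *Selplg*, the selectin ligand, lay between 753 and 885. *Jam2* was called in several comparisons (1 of 6 in each, background 1.03 to 5.26%) but had at most 26 normalized counts. Its calls went opposite ways. In +*GFP* cells it was lower without treatment (6 against 26) and higher after IL-1α (18 against 8), the latter within counting error. The integrin ligand *Madcam1* was at 0 in all libraries.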

How the data were processed

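Normalized counts were analysed for 4 libraries, 1 for each condition, from immortalized *MK2*-KO macrophages. The authors deposited 1 table of 55356 genes whose column names point to salmon and which holds DESeq2 normalized counts rounded to whole numbers, a score and not raw reads, so no count model was fitted. The submitters' processing notes name DESeq2 and GRCm38. Gene positions in the table differ from GRCm38 for all 10 genes. The shift was the same for genes on the same chromosome (chromosomes 2 and 7), and gene widths were equal. Which build the table follows was not settled, so printed positions are those of GENCODE M21 on GRCm38, matched by Ensembl ID. Tool versions and the counting of strands are not given in the sources used here. The labels describe poly(A) selection and paired reads, the paper ribo-depletion and single reads.

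Log2 ratios (pseudocount 1) and Clopper-Pearson intervals were computed with numpy 2.4.6, pandas 2.3.3 and scipy 1.17.1 and tested on simulated data. The number of reads behind a normalized count is not known exactly, and 0.7 and 1.3 reads were tried. Other alternatives were scalings (totals, median of ratios, trimmed mean, *Gapdh*), pseudocounts of 0.5 and 5, thresholds of 1.5-fold and 3-fold and other minimum means. Promoters are from RefSeq (GRCm38.p6). Named genes are all 10 members, the genes of the lists that were called and had at least 50 normalized counts in a library, and the 3 genes nearest in pattern. Other genes and uncalled ones are given for context and were chosen after their values were seen. Members and lists were chosen with earlier results of these data known. Some genes of the lists are not reported here by name.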

Additional observations from a re-analysis of the deposited data

Results flagged for a closer look

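*Icam2* and *Itgal* moved in opposite directions after IL-1α in the lines. *Icam2* stood at -0.24 in i*MK2*-KO +*GFP* and at 0.23 in i*MK2*-KO +*MK2* cells (log2 ratios), and *Itgal* at 0.13 and -0.069. Each of these responses, taken singly, was within counting error. The difference between the responses was -0.47 for *Icam2* and 0.20 for *Itgal*, and it was not tested.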

How the results depend on the processing

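No paired analysis was possible because each condition has 1 library, and no replicate could be left out. Of 45 member values (9 genes, 4 comparisons and the difference between the responses), 40 kept their sign under all 10 alternatives. The 5 that changed sign were at most 0.03 in size, among them *Icam1* between the untreated lines, which moved from 0.03 to -0.03 with scaling to *Gapdh*. None of the called members reversed. The number of called members in the untreated comparison went from 2 to 0 at a 3-fold threshold and to 1 with a minimum mean of 50, which leaves out *Itgax*. Between the lines after IL-1α it went from 3 to 2 in both cases, without *Itgax*. With any value above 0 admitted, *Vcam1*, with its 2 counts, was added to the calls of the IL-1α response in i*MK2*-KO +*GFP* cells and of the difference between the responses, which both went from 1 to 2, and of the lines after IL-1α, which went from 3 to 4. With 0.7 reads per normalized count none of 36 intervals changed its side of 0, and with 1.3 reads 3 did (*Icam2* in i*MK2*-KO +*GFP* cells and *Itgav* in both lines, all for the IL-1α response).

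Counts of called genes over the whole table depended on the settings. In the order untreated lines, lines after IL-1α, response in i*MK2*-KO +*GFP* cells, response in i*MK2*-KO +*MK2* cells and difference between the responses, they were 1095, 1214, 480, 240 and 702. They became 2199, 2442, 1122, 704 and 1579 at 1.5-fold, 598, 640, 192, 74 and 291 at 3-fold, 583, 689, 185, 42 and 230 with a minimum mean of 50, and 5763, 5746, 4696, 4309 and 6695 with any value above 0. With a pseudocount of 5 the responses gave 312 and 130. Scaling to *Gapdh* moved the median of all genes from 0.03 to -0.07 between the lines after IL-1α and *Itga4* from 0.02 to -0.08 with it. Depth limits *Vcam1*, *Itgax* and *Itgal* most.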
